A study of Mus musculus with 4 samples.

Results

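Dickkopf proteins and other extracellular antagonists of Wnt signalling were described in aging skeletal muscle through 9 genes, chosen by name and not by their values: Dkk1, Dkk2, Dkk3, Sfrp2, Sfrp4, Sfrp5, Wif1, Frzb and Kremen1. They were 9 of 20869 gene labels present in any sample, and 8 of the 9 were among the 20340 labels with a value in all 4 samples. GENCODE annotates all 9 as protein-coding genes. The tissue was the tibialis anterior (TA), a shin muscle made mostly of fast fibers, from C57BL/6 mice. Young mice were 3 months old and Old mice 20 months old, with 2 samples per age (Old 1, Old 2, Young 1 and Young 2). No transgene or treatment is named for these samples, and both ages were wild type. The study's methods say that sex was not selected and give a number of mice per group for animal work in general, but not how many mice stand behind each sequenced sample. mRNA-seq values were FPKM, sequenced fragments divided by transcript length and by the total mapped in that sample, so levels can be compared between genes of different length. The comparison asks which transcripts differ in TA muscle at the age at which the study describes smaller fibers.

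Wnt proteins are secreted lipid-modified ligands that bind Frizzled receptors and, in the β-catenin branch of the pathway, the co-receptors LRP5 and LRP6. Antagonists act outside the cell by either of 2 routes. Dickkopf proteins occupy the co-receptors, and Kremen receptors bind Dickkopf proteins and help to clear the co-receptor from the cell surface, while the secreted frizzled-related proteins (Sfrp2, Sfrp4, Sfrp5 and Frzb) and WIF1 bind Wnt ligands themselves. Kremen1 is a membrane protein and not a secreted one, and Dkk3 differs in sequence from the other Dickkopf proteins and is not counted among the classical co-receptor ligands. In adult muscle, Wnt signalling is known for its part in satellite cell differentiation and in fibrosis.

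Dkk2 was the antagonist transcript whose level in either old muscle exceeded that of both young ones, by 5.87-fold and 3.24-fold within pairs of samples of like scale. Dkk3 was 2.07-fold higher in the single old sample than in the single young sample that covered it. Frzb was lower in both old muscles than in both young ones, by 4.08-fold and 5.22-fold. Of the 15823 genes above 0 in at least 1 sample, 1.20% were higher and 1.49% lower in both old samples in this way. Kremen1, the most abundant of the genes, was 1.39-fold lower in both pairs, and Sfrp5 differed by less than 1.1-fold in either.

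Promoter sequences were read from RefSeq (GRCm38.p6) for 6 of the 9 genes, Dkk1, Dkk2, Sfrp2, Sfrp5, Wif1 and Frzb. The windows covered 300 bases around the start of the gene. Because several Wnt antagonists are known feedback targets of the pathway, the core of the TCF/LEF motif (CTTTGA, or TCAAAG on the other strand) was searched on both strands. It occurred in 2 of the 6 promoters, Dkk1 and Frzb, and in 16.0% of 32851 promoters of the same length. A FOXO core (GTAAACA or TGTTTAC), of interest because FoxO factors act on the Fbxo32 and Trim63 promoters in atrophy, occurred in 0 of the 6 and in 3.65% of all promoters, which says only that these letters are not in these windows. TATAAA or TTTATA occurred in 3 of the 6 (Dkk1, Dkk2 and Wif1) and in 13.6% of all promoters. No factor binding was measured here, and a match of letters is a description only.

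The 3 TCF/LEF core matches are shown 5′ to 3′ on the strand of the gene in windows of 30 bases, with the motif in capitals. For Dkk1 (minus strand) they lie at chr19:30549653-30549682, with the motif 174 to 169 bases before the start, and at chr19:30549596-30549625, with the motif 117 to 112 bases before it. For Frzb (minus strand) the window is chr2:80447474-80447503 and the motif lies 95 to 90 bases before the start. These starts are those of RefSeq, and GENCODE begins both genes further upstream, at position 30549665 for Dkk1 and 80447625 for Frzb. By GENCODE, the second Dkk1 window and the Frzb window lie inside the gene, and the first Dkk1 window spans the start.
Dkk1, first match: gaggggagagtgTCAAAGtcctccctgctt
Dkk1, second match: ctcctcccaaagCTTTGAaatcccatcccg
Frzb: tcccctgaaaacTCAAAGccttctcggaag

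Dkk2, the member that stood out as higher in old muscle, had no TCF/LEF core match. Like Dkk1, it had a TATAAA upstream of the RefSeq start, here 32 to 27 bases before it. Its 250 bases upstream (chr3:132085042-132085291, plus strand, 55.6% G and C) are shown with that TATAAA in capitals.
Dkk2 upstream: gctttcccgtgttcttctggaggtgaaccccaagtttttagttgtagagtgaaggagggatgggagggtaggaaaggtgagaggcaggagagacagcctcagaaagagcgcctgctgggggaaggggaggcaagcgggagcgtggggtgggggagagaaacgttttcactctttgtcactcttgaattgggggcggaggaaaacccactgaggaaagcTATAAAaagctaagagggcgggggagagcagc

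A scale factor separated the samples within each age, crossed between the ages, and it bears on every value below. FPKM over the 20605 loci shared by all 4 samples summed to 698130 in Old 1 and 739302 in Young 2, against 226747 in Old 2 and 251294 in Young 1. Between 25.3% and 46.4% of these loci were listed at 0 in a sample. The factor grew at low levels: the median gene was 1.98-fold higher in Old 1 than in Old 2 at 10 to 30 FPKM and 5.11-fold higher at 0.3 to 1 FPKM. Each old sample was therefore also compared with the young sample of like scale. These pairs, Old 1 and Young 2 at the higher scale and Old 2 and Young 1 at the lower, were set once the values had been seen, and in them the median gene at 10 to 30 FPKM had a ratio of 0.993 and 0.982. Depth is unknown since the files hold no counts. Labels do not say that the samples of an age came from separate mice, and the series' description speaks of 3 samples per age where 2 were analysed here. The study's figure legend speaks of 2 independent sequencing experiments per sample, without saying whether these were separate mice. The spread between the samples of an age may be technical, and whether they are the same library was not tested. In that case n is 1 per age, and neither the limma p-values nor a statement on both samples of an age would rest on replicates. Each sample's value is given in place of a mean ± SD. With 2 samples against 2, an exact two-sided permutation test cannot give a p under 0.33.

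Limma on log2(FPKM + 1), with the values as deposited, found 0 of the 4 members tested past an adjusted p of 0.05, against 0.302% of the 10266 genes tested (0.175% higher and 0.127% lower in old muscles). At an unadjusted p under 0.05 the count of members was also 0, against 77 of the 10266 genes tested, and no other tool was run. That count is fragile, as Frzb had an unadjusted p of 0.0525 by limma, and 0.0388 with a pseudocount of 0.1. The genes tested had at least 1 FPKM in at least 2 samples. Sfrp4, Sfrp5, Frzb and Kremen1 passed that filter, Dkk1, Dkk2, Sfrp2 and Wif1 did not, and Dkk3 had values in only 2 samples. The median standard error over the genes tested was 0.98 on the log2 scale, so only very large differences could pass this test. Fbxo32, with a log2 fold change of 2.23 (standard error 0.93), did not pass. Myl2, a slow fiber marker, only just passed with 3.67 (standard error 0.97, adjusted p = 0.0479 by limma). The count of 0 members therefore says little about smaller differences.

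**Figure D1:**
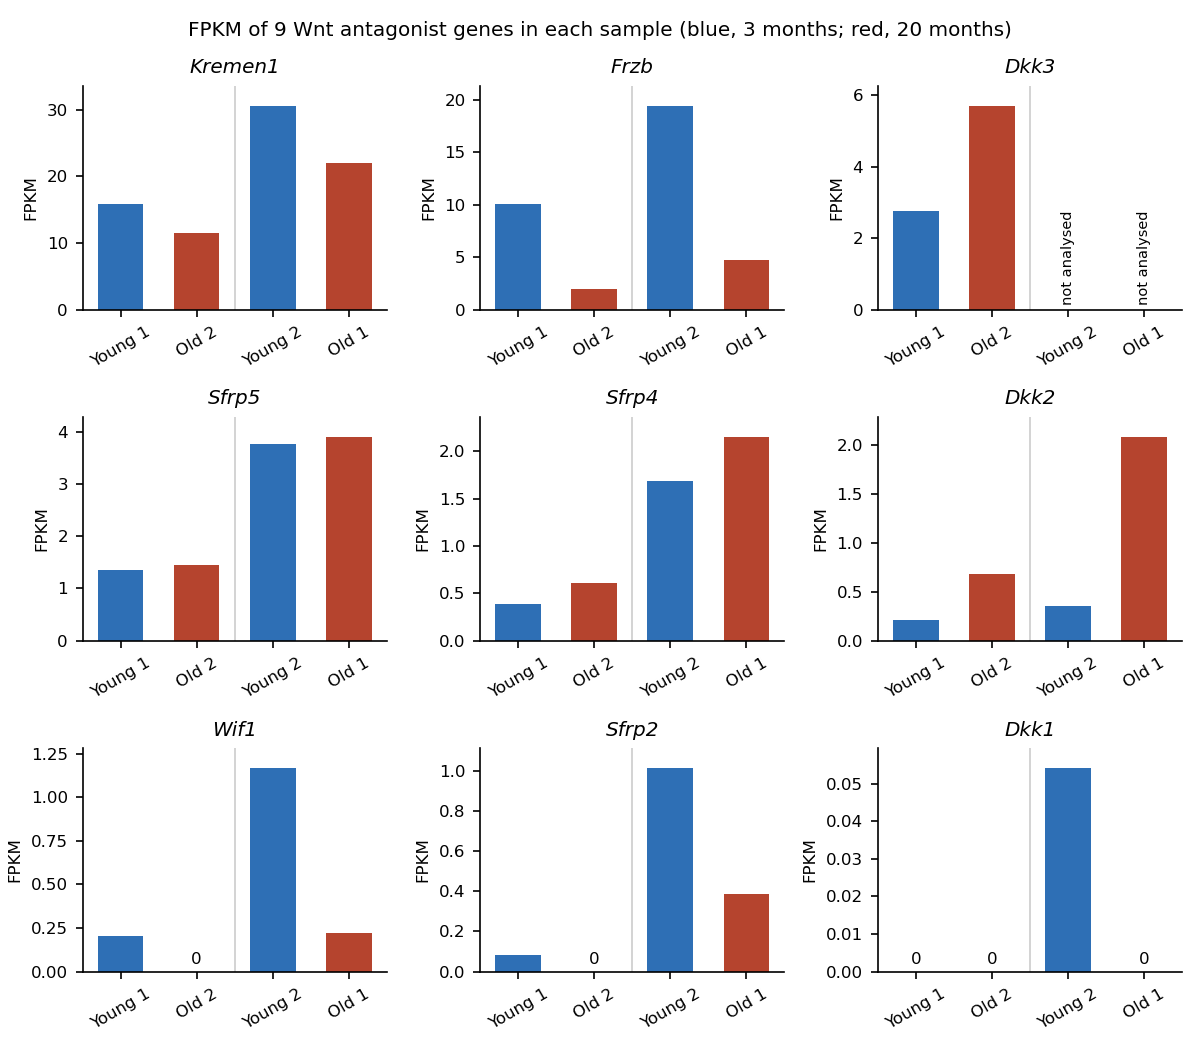
FPKM (vertical axes, each starting at 0 with its own range) of the 9 genes in each sample, young in blue and old in red, with the pair of lower scale (Young 1, Old 2) left of the gray line and the pair of higher scale (Young 2, Old 1) right of it. Frzb goes from 10.03 to 1.92 FPKM on the left and from 19.4 to 4.76 FPKM on the right, Dkk2 is higher in the old sample on both sides, and Dkk3 was not analysed in the right-hand pair.

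Among the Dickkopf genes, Dkk3 had the highest level. The Dkk3 locus lies at chr7:112115894-112160744 on the minus strand (mm10). Dkk3 had 5.68 FPKM in Old 2 and 2.75 FPKM in Young 1, and it was not analysed here in Old 1 and Young 2, whose tables stop earlier on chromosome 7. The old sample was thus higher by a log2 ratio of 1.05, and by 0.83 on the log2(FPKM + 1) scale. As each age has a single value, nothing was tested and no replicate can check the difference. Between these 2 samples, 2.69% of the 8020 genes with at least 1 FPKM in either exceeded 2-fold in the direction of Dkk3, and 4.94% did so in the other direction. The ratio of Dkk3 or a larger one was seen for 200 genes (2.49%), and among genes with a mean of 2 to 8 FPKM in the pair, 2.13% were at least 2-fold higher. Fbxo32 and Trim63, the ubiquitin ligase genes that the study pairs with Dkk3 as markers of atrophy, had ratios of 5.16 and 1.997 between the same 2 samples.

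**Figure D2:**
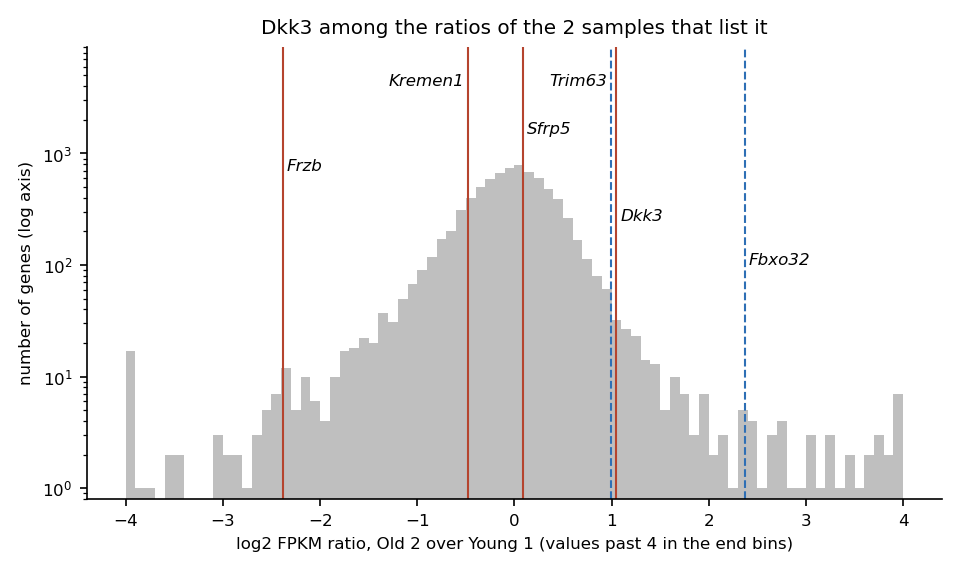
Histogram of the log2 FPKM ratio of Old 2 over Young 1 (horizontal axis) for 7954 genes above 0 in both and at 1 FPKM or more in either, with the number of genes on a log axis. Solid red lines mark antagonist genes and dashed blue lines the atrophy genes: Dkk3 at 1.05 lies past the 90th percentile of 0.53, and Frzb at -2.38 lies past the 10th percentile of -0.67.

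The place of Dkk3 among the antagonists differed between these samples. In Old 2 it was second to Kremen1, with 49.6% of the Kremen1 level, and in Young 1 it came after Kremen1 and Frzb, with 17.3%. The ratio of Dkk3 to Frzb, a value that no scale factor common to all genes of a sample can change, was 2.96 in Old 2 and 0.274 in Young 1. The rank and these ratios also move with the other genes. Between the same samples Frzb was at 0.192 and Kremen1 at 0.720 times the young level, and Dkk3 at 2.07 times.

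Dkk2, whose protein binds LRP5 and LRP6, stood at 0.209 and 0.354 FPKM in Young 1 and Young 2 and at 2.07 and 0.677 FPKM in Old 1 and Old 2. Even Old 2 lay above Young 2, although Young 2 belongs to the samples of higher scale. Yet Dkk2 did not follow that scale in young muscle. It was 1.69-fold higher in Young 2 than in Young 1, where genes at 0.3 to 1 FPKM, the nearest range counted, had a 10th percentile of 2.75 and a median of 4.89. The lack of overlap and the ratio of Old 1 over Young 2 thus rest in part on a low value in Young 2. The locus spans chr3:132085292-132180304 on the plus strand. Of the 8 members with a value in all samples, Dkk2 was the 1 with both old values above both young ones, against 1.20% of the 15823 genes above 0 in at least 1 sample and 0.844% of the 4742 genes with a mean of 0.3 to 3 FPKM. It was also the 1 member at least 2-fold higher in both pairs, as were 1.36% of the 15823 genes. These are low levels at which single pairs scatter. For genes with a like mean in Old 1 and Young 2 (1 to 3 FPKM), the 10th and 90th percentiles of the ratio were 0.554 and 1.71. For Old 2 over Young 1 (0.3 to 1 FPKM) they were 0.455 and 1.81, and Dkk2 lay outside both ranges. Without the filter on low values, limma gave Dkk2 a log2 fold change of 0.83 on the log2(FPKM + 1) scale (standard error 0.50, adjusted p = 1.00), which understates the change of so low a gene. Relative to Kremen1, Dkk2 had 9.45% and 5.91% in the old samples and 1.31% and 1.16% in Young 1 and Young 2.

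Dkk1, the founding Dickkopf inhibitor (chr19:30545885-30549496, minus strand), was listed at 0 in Old 1, Old 2 and Young 1 and had 0.0541 FPKM in Young 2. No age difference was detectable at this level. Ckm, the creatine kinase gene of muscle fibers, was likewise listed at 0 in all 4 samples, so that a 0 in these tables may be a failed estimate and is not read here as absence of the transcript.

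Kremen1, the Dickkopf receptor at chr11:5191553-5261610 on the minus strand, was the most abundant of the antagonist genes in every sample. Its FPKM was 15.9 in Young 1, 30.5 in Young 2, 21.9 in Old 1 and 11.5 in Old 2, so the ages overlapped as deposited. Within pairs the old sample had 0.719 and 0.720 times the young level. Limma gave a log2 fold change of -0.45 with a standard error of 0.93 and an adjusted p of 1.00. A drop of this size was common: for genes at 10 to 30 FPKM the 10th and 90th percentiles of the ratio were 0.682 and 1.50 for Old 1 over Young 2 and 0.673 and 1.38 for Old 2 over Young 1, and Kremen1 lay between them. Summed over the 8 members with a value in every sample, FPKM was 28.2 in Young 1, 58.0 in Young 2, 35.4 in Old 1 and 16.1 in Old 2, and Kremen1 held 52.6% to 71.1% of it.

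The genes whose profile lay nearest to Kremen1 over the 4 samples, by Euclidean distance of centred log2(FPKM + 1) among the 10266 genes tested, were Slc35b1 (distance 0.00991), Akap1 (0.0113) and Stat3 (0.0116). Slc35b1, a nucleotide sugar transporter gene of the endoplasmic reticulum, read 38.5 in Young 1, 74.0 in Young 2, 54.3 in Old 1 and 27.9 in Old 2. With 4 samples that differ mostly by scale, many genes share this profile.

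Among the antagonists that bind Wnt ligands, Frzb, also called secreted frizzled-related protein 3, showed the clearest difference. Frzb (chr2:80411970-80447396, minus strand) stood at 10.03 and 19.4 FPKM in Young 1 and Young 2 and at 4.76 and 1.92 FPKM in Old 1 and Old 2. Both old samples lay below both young samples, although Old 1 is of higher scale than Young 1. It was the 1 of 8 members lower in both old samples, against 1.49% of the 15823 genes, and the 1 member at least 2-fold lower in both pairs, against 2.05%. With ratios of 0.245 and 0.192, Frzb lay below the 10th percentile of genes with a like mean in each pair. That percentile was 0.682 for Old 1 over Young 2 (10 to 30 FPKM) and 0.666 for Old 2 over Young 1 (3 to 10 FPKM).

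The limma log2 fold change of Frzb was -1.87 (standard error 0.96, adjusted p = 1.00) with the values as deposited. When each sample was divided by its median over the genes above 0 in all samples, Frzb read 3.10 and 2.96 in Old 1 and Old 2 and 15.3 and 12.7 in Young 1 and Young 2. The standard error then fell to 0.12 and Frzb passed the threshold (log2 fold change -1.89, adjusted p = 0.0390 by limma), as did 0.604% of the genes tested. With the median taken over the genes tested instead, the adjusted p was 0.0632 by limma and Frzb missed the threshold. Frzb also passed limma with median-ratio scaling, as did 1.32% of the genes tested, and with quantile normalization, as did 2.19%. With the pairs of like scale as a block, Frzb, Kremen1 and Sfrp4 passed limma, but so did 60.3% of all genes. The call for Frzb thus turned on how the scale was set, while the size of the difference stayed between -1.84 and -1.90 over the 4 scalings tried. Relative to Kremen1 in the same sample, Frzb had 21.7% and 16.8% in Old 1 and Old 2 and 63.1% and 63.6% in Young 1 and Young 2. In bulk muscle, fewer cells of a type that makes a transcript and less of that transcript per cell cannot be told apart.

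**Figure D3:**
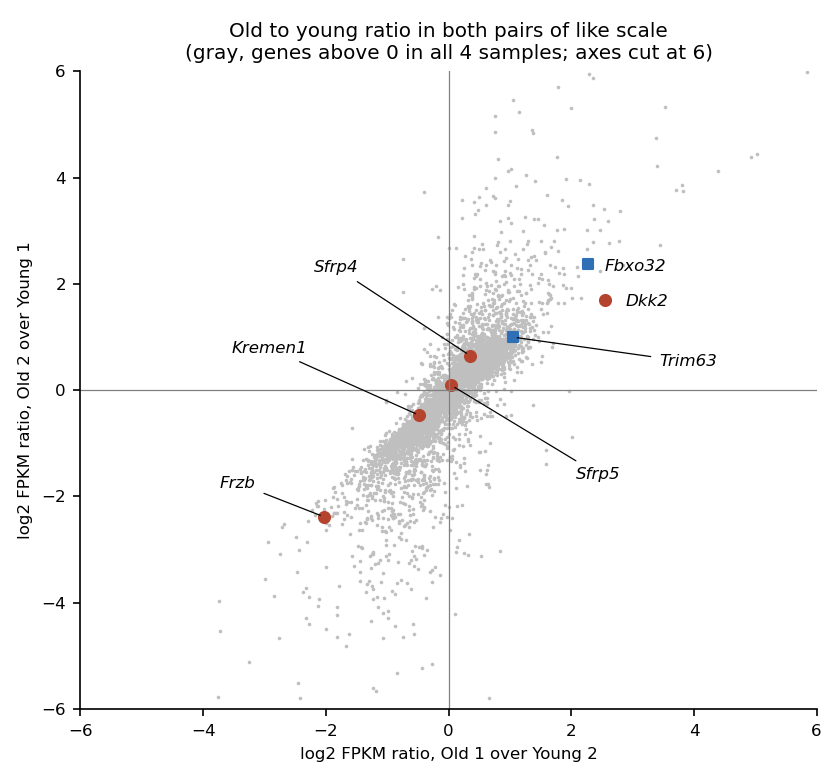
The log2 FPKM ratio of Old 1 over Young 2 (horizontal axis) against that of Old 2 over Young 1 (vertical axis) for 10639 genes above 0 in all samples (gray, 10614 within the axes), with 5 antagonist genes as red circles and Fbxo32 and Trim63 as blue squares. Dkk2 (2.55 and 1.70) and Frzb (-2.03 and -2.38) lie far from the origin on opposite sides, while Sfrp5 (0.05 and 0.09) sits at it.

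Sfrp5, which encodes a secreted frizzled-related protein (chr19:42197971-42202252, minus strand), had 1.36 FPKM in Young 1, 3.77 in Young 2, 3.90 in Old 1 and 1.45 in Old 2. The values followed the scale of the sample and not age. The paired ratios were 1.03 and 1.07, and limma gave a log2 fold change of 0.04 with a standard error of 1.01 and an adjusted p of 1.00. That error leaves differences of either sign open.

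Sfrp4, its relative at chr13:19623175-19632823 on the plus strand, had 0.388 FPKM in Young 1, 1.69 in Young 2, 2.15 in Old 1 and 0.609 in Old 2. Old was above young in both pairs, with ratios of 1.27 and 1.57, but the ages overlapped. Limma gave a log2 fold change of 0.22, with a standard error of 1.02 and an adjusted p of 1.00. Genes of like level had a 90th percentile of 1.71 for Old 1 over Young 2 (1 to 3 FPKM) and 1.81 for Old 2 over Young 1 (0.3 to 1 FPKM), so Sfrp4 lay within the usual scatter of both pairs.

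Sfrp2 and Wif1 were low and each was listed at 0 in Old 2. Sfrp2 (chr3:83766321-83774314, plus strand) had 0.0818 FPKM in Young 1, 1.01 in Young 2 and 0.386 in Old 1. Wif1, which encodes the Wnt inhibitory factor (chr10:121034004-121100642, plus strand), had 0.201 FPKM in Young 1, 1.17 in Young 2 and 0.223 in Old 1. In the pair of higher scale, where both samples had a value, Sfrp2 was 2.63-fold and Wif1 5.24-fold lower in Old 1 than in Young 2. No fold is given for the other pair, in which the old sample was listed at 0. Without the filter, limma gave log2 fold changes of -0.33 for Sfrp2 and -0.54 for Wif1, with adjusted p = 1.00 for both. On the median scale Kremen1 and Wif1 joined Frzb as lower in both old samples, 3 of 8 members against 18.3% of the 15823 genes, and Dkk2 stayed the 1 higher member against 16.5%. Wif1 entered that count with its listed 0 in Old 2, which may be a failed estimate.

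The receptors that Wnt ligands and antagonists share were measured better than most ligands. Of 12 genes for LRP co-receptors and Frizzled receptors, all had a value, 8 were tested by limma, and 0 passed in either direction, with a median log2 fold change of -0.27 against -0.01 over all genes tested. In both pairs, 10 of the 12 were lower and 2 higher in the old sample. The share of all genes with 1 direction in both pairs was not counted, so no trend of the receptors is read from this. Fzd4, the receptor with the highest mean over the 4 samples though below Fzd7 and Fzd9 in both old ones, stood at 16.1 and 31.4 FPKM in Young 1 and Young 2 and at 14.8 and 7.78 FPKM in Old 1 and Old 2. It was the 1 of 12 receptors with both old values below both young ones, against 1.49% of all genes above 0, at 0.473 and 0.482 times the young level within pairs. Fzd7, a Frizzled receptor of satellite cells, had 6.96 FPKM in Young 1, 13.5 in Young 2, 22.7 in Old 1 and 11.7 in Old 2, with ratios of 1.68 and 1.67, and Fzd9 had ratios of 1.56 and 1.62. The co-receptors, named here after their values were seen, had ratios of 0.871 and 0.874 for Lrp6 and 0.725 and 0.704 for Lrp5.

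Of 19 Wnt ligand genes, 3 were listed at 0 in every sample and 5 were tested, with 0 past the threshold and a median log2 fold change of -0.39. Wnt4, the ligand with the highest mean over the 4 samples though below Wnt9a in both young ones, stood at 3.003 and 5.41 FPKM in Young 1 and Young 2 and at 12.5 and 6.45 FPKM in Old 1 and Old 2. It was the 1 of 19 ligands with both old values above both young ones, against 1.20% of all genes above 0, by 2.31-fold and 2.15-fold within pairs. Wnt9a had ratios of 0.733 and 0.718 and Wnt11 of 0.711 and 0.627. Wnt5a, singled out after its values were seen as the ligand at least 2-fold lower in both pairs, had ratios of 0.458 and 0.386.

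Other extracellular modulators had a value for 14 of 16 genes, of which 3 were tested and 0 passed, with a median log2 fold change of -0.27. Most were near 0 FPKM. Igfbp4, whose protein binds LRP6 and Frizzled receptors, had ratios of 1.09 and 1.08, Serpinf1 of 0.796 and 0.774 and Apcdd1 of 0.669 and 0.565. Dkk4 and Sfrp1 were not analysed here.

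Transcripts that β-catenin signalling is known to raise showed no common direction. Of 13 target genes 11 had a value in every sample and 4 were tested, with 0 past the threshold in either direction and a median log2 fold change of -0.01. Axin2, the usual readout of the pathway, had 1.27 FPKM in Young 1, 2.87 in Young 2, 2.51 in Old 1 and 1.04 in Old 2, so that old was at 0.874 and 0.818 times young within pairs. Myc had ratios of 1.24 and 1.26 and Znrf3 of 1.15 and 1.24. Within both pairs, 4 targets were higher and 5 were lower in the old sample, again without a count over all genes.

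Several secreted frizzled-related proteins are known products of fibroblasts and other connective tissue cells, and markers of those cells were read beside them. Fibroblast markers all had a value and were tested, and 0 of 11 passed limma. Their summed FPKM was 302 in Young 1, 596 in Young 2, 461 in Old 1 and 229 in Old 2, or 0.773 and 0.759 times young within pairs. Gsn (1.16 and 1.13), Dcn (1.24 and 1.21) and Pdgfra (1.16 and 1.18, named after its values were seen) were higher within pairs. Ly6a and 3 collagen genes, Col1a1, Col1a2 and Col3a1, had both old values below both young ones, 4 of 11 markers against 1.49% of all genes above 0. Col1a1, the gene of a chain of fibrillar collagen, had 10.6 and 5.45 FPKM in Old 1 and Old 2 against 23.2 and 46.3 FPKM in Young 1 and Young 2, ratios of 0.230 and 0.235 that were close in size to those of Frzb. The part of the fibroblast content in the Frzb difference was not tested.

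Tendon markers had a value for 6 of 8 genes, with 0 past the threshold and sums at 0.794 and 0.632 times young within pairs. Fmod had ratios of 0.559 and 0.539 and Thbs4 of 0.784 and 0.785. Scx went the other way, with a ratio of 1.68 for Old 1 over Young 2. It was listed at 0 in Old 2 and Young 1, so it adds to the first ratio of sums only. Schwann cell and nerve markers stood at 0.682 and 0.658 over 5 genes and smooth muscle and pericyte markers at 0.724 and 0.833 over 4 genes. Adipocyte markers had a value for 6 of 7 genes. Their sums were 0.855 and 1.48 times young within pairs. Cfd had 119 FPKM in Old 1 and 147 FPKM in Young 2, most of the sums of 136 and 159. It was listed at 0 in Old 2 and Young 1, so the sums of the pairs rest on different genes. Adipoq was 1.97-fold and 2.17-fold higher, and Pparg (named after its values were seen) had ratios of 0.537 and 0.370. The part of these cell types in the differences of Frzb, Dkk2 and Dkk3 was not tested.

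The label of TA muscle was checked against fiber markers. Pygm (977 to 5131 FPKM) and Mb (1092 to 5739 FPKM) were abundant in every sample. Ckm was listed at 0 in every sample, Neb in Old 2 and Young 1, and Ttn in both old samples, where the call by limma (adjusted p = 3.6e-07) rests on those values of 0. Slow fiber markers were far higher in old muscles: all 5 passed limma (0.175% of all genes did in that direction), and their summed FPKM was 1167 in Old 1 and 421 in Old 2 against 27.9 in Young 1 and 73.0 in Young 2, 16.0-fold and 15.1-fold within pairs. The old and young samples therefore differed in slow fiber transcripts as well as in age, and its part in the antagonist differences was not tested.

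**Figure D4:**
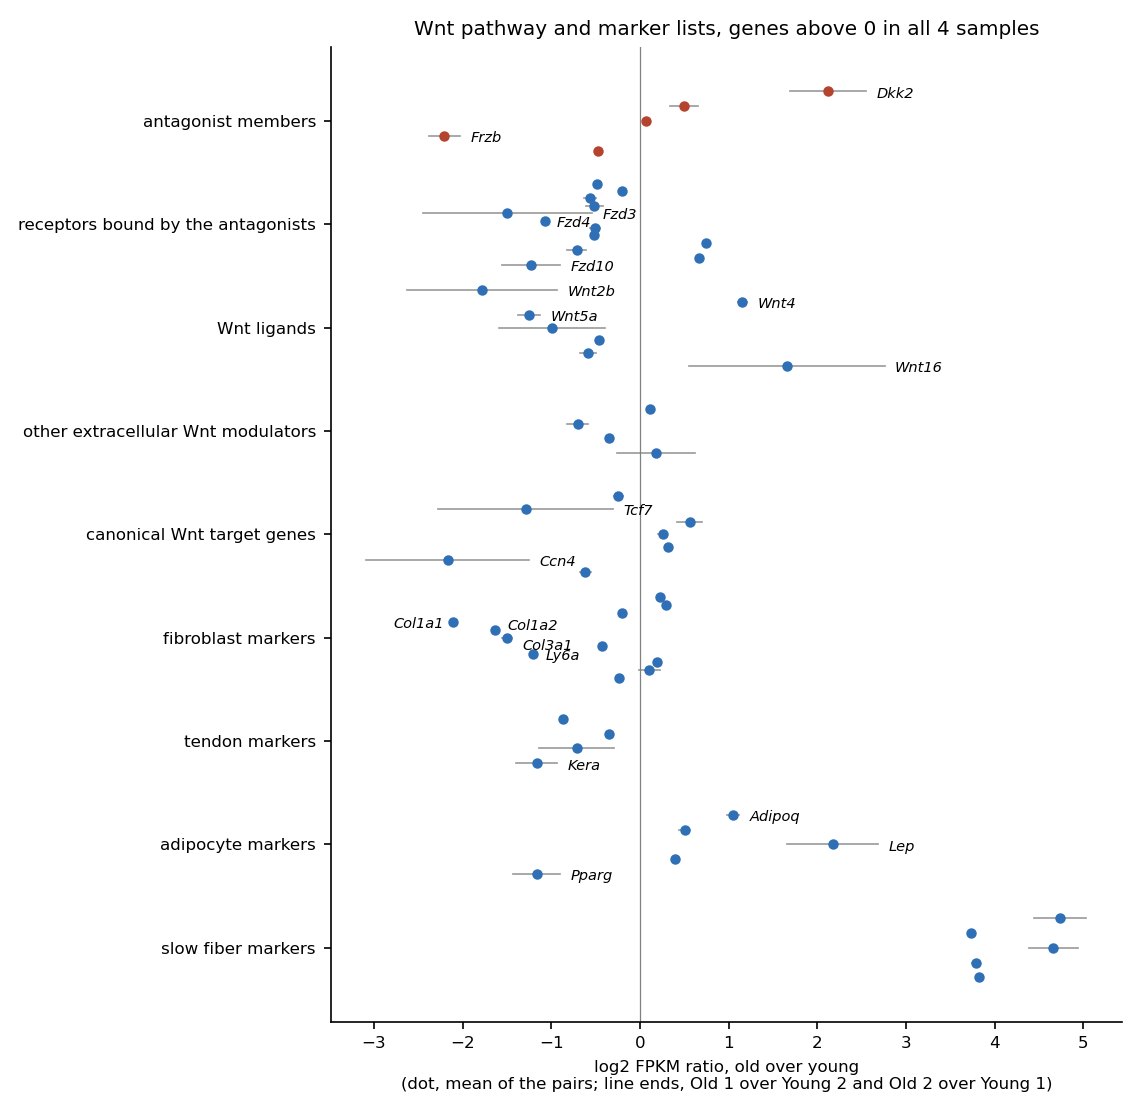
The log2 FPKM ratio of old over young (horizontal axis) for genes above 0 in all samples, by list: dots are the mean of the pairs and line ends the values of Old 1 over Young 2 and Old 2 over Young 1, with genes past 1 or -1 named except in the slow fiber list. Frzb lies near Col1a1 at the lower end, Dkk2 and Wnt4 lie on the higher side, and the 5 slow fiber genes lie furthest to the right.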

How the data were processed

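mRNA-seq was performed on TA muscle of C57BL/6 mice, 2 samples per age. After trimming and the removal of PCR duplicates, the authors aligned reads with TopHat2 (2.0.10) guided by RefSeq genes and deposited FPKM per gene locus from Cufflinks (2.1.1), 1 table per sample. Locus coordinates match mm10. Each table ends in an incomplete line on chromosome 7 (Old 1, Young 2) or 8 (Old 2, Young 1) in text order, and genes beyond it were not analysed here. Removal of duplicates can lower highly expressed genes.

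Loci sharing a symbol were summed. The fit used limma (3.58.1, R 4.3.3; trend, two-sided, Benjamini-Hochberg over 10266 genes) on log2(FPKM + 1) with no further scaling. It took the variance from all genes together (20532 total degrees of freedom, against 3.17 without the filter). Its p-values, small ones included, therefore rest on that shared variance and not on the spread of each gene. Genes needed 1 FPKM in 2 samples. The fit was also run on simulated data with a uniform scale factor and no failed estimates. The factor in these samples grew at low levels, so that run says little about low genes. Whole reads could not be recovered, so no count test was run. Alternatives covered scaling, pseudocount, filter, blocks and samples left out. The members, lists and tests were chosen with earlier results of these data known. Text names all 9 members, Fbxo32, Trim63 and the 3 genes nearest to the most abundant member. Of each Wnt pathway list it names the 3 highest genes, and others where said. Genes of the lists past the threshold are named or counted. For several cell type lists only some of the 3 highest genes are named, or none, so the named genes do not stand for those lists. The deposited replicate numbers did not pair the samples by scale: deviations from the age mean had a correlation of -0.885 between same-numbered samples.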

Additional observations from a re-analysis of the deposited data

How the results depend on the processing

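By limma, 18 genes were higher and 13 lower, and these counts depended on the setting. They were 31 and 31 with median scaling, 89 and 136 with quantile normalization, 4 and 2 when every sample had to reach 1 FPKM, and 0 and 0 by limma without a filter (23 and 29 at an unadjusted p under 0.05). Added after seeing the data, median scaling over the genes tested gave 12 and 13, median-ratio scaling 61 and 75, and crossed pairs as a block (Old 1 with Young 2, Old 2 with Young 1) 2812 and 3374. Leaving out 1 sample in turn gave 2 to 6 higher and 3 to 10 lower.

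With the replicate number as a block, same-numbered samples being paired, the counts were 2 and 3 and no member passed limma, as without it. The correlation of same-numbered deviations was -0.885. With 2 samples per age this value mirrors the crossed scale factor, and whether same-numbered samples shared a preparation was not tested.

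Members past the limma threshold were 0 as deposited, 1 (Frzb) with median scaling, with quantile normalization and with median-ratio scaling, and 3 (Frzb, Kremen1 and Sfrp4) with crossed pairs as a block, where 60.3% of all genes passed. With a sample left out, log2 fold changes ran from -0.26 to 0.71 for Sfrp4 and from -0.46 to 0.55 for Sfrp5, negative without Old 1 or Young 1, and from -0.90 to 0.00 for Kremen1, at 0.00 without Young 2. Leaving out a sample unbalances the scale factor. Members higher in both old samples went from 1 to 2 with quantile normalization and members lower from 1 to 3 with median scaling and 4 with quantile normalization, where 17.5% and 17.7% of all genes above 0 were higher and lower in this way. With a sample left out these counts ran from 1 to 3 and from 1 to 5, while the share of all genes ran from 1.20% to 49.6% and from 1.49% to 50.4%, so the rise is no result about the members. The Dkk3 difference of 0.83 became 1.02 with a pseudocount of 0.1 and 0.85 after median scaling of its pair.

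The difference of Frzb kept its direction under every alternative run. Depth is unknown, so no counting error can be given for values under 1 FPKM. Among these were all values of Dkk1, those of Dkk2 except in Old 1, and those of Sfrp2 and Wif1 except in Young 2.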

Other observations

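Other cells of the tissue were described by markers in the same way. Satellite cell markers, genes of the muscle stem cell, summed to 0.967 and 0.983 times the young level within pairs over 5 genes, and endothelial markers to 0.881 and 0.864 over 4 genes. Among them Vcam1 had ratios of 1.11 and 1.09, Kdr, a receptor of vascular endothelial growth factor, of 1.03 and 1.00, and Pecam1 of 0.819 and 0.806. Leukocyte markers were low in every sample, with a summed FPKM from 0.781 in Old 2 to 6.27 in Young 2. In none of these 3 lists did a gene pass limma at an adjusted p under 0.05, and none was tested against another list.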
